A study of Sus scrofa with 12 samples.

Results

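The genes described here are 10 genes of the actin cytoskeleton and of focal adhesions that are known or proposed targets of serum response factor (SRF): ACTN1, ACTN4, ZYX, TPM4, MYH9, PDLIM5, TLN1, CALD1, VCL and FILIP1L. They were chosen by name, with their differences between extracellular vesicles (EVs) and mesenchymal stromal/stem cells (MSCs) in these same libraries in view, so those differences are given as a description and without a test. All 10 had an entry in the count table, among 13363 gene symbols, and all 10 passed the filter on low counts, which left 12392 entries for testing. For each symbol the entry with the most reads was used. MSCs came from abdominal fat of 3 female domestic pigs aged 3 months, were grown with platelet lysate and were used at passage 3, and EVs were pelleted from their supernatants by ultracentrifugation. Sequencing of mRNA gave 3 MSC and 3 EV libraries, and small-RNA sequencing gave another 3 of each. Replicates 1, 2 and 3 are the same pigs in MSCs and EVs. Neither group had received a treatment, and vesicles of different kinds were not separated from each other.

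Actin filaments pull on the matrix through focal adhesions, where integrins in the membrane are joined to the filaments by talin, vinculin and other adaptors. SRF, together with its actin-sensing coactivators MRTFA and MRTFB, drives many genes of this machinery. When globular actin is used up in filaments, the coactivators are freed to enter the nucleus. Cultured MSCs spread on plastic are known for stress fibres and large adhesions.

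Reads counted on genes numbered from 10429085 to 12276855 per mRNA library. They made up 25.4% to 28.2% of the library totals that underlie the deposited RPKM (reads scaled by gene length and by library total). Levels between libraries are given as CPM (counts scaled to the library total) after TMM normalization, with factors from 0.852 to 1.14, and levels between genes as RPKM, which corrects for length. A count of 0 allows up to 3 reads, which is 0.244 to 0.288 CPM. Of the MSC surface markers, CD44 and NT5E had mean RPKM of 40.2 and 11.6 in MSCs, ENG had 0.401, and THY1 was listed at 0 reads. The EV markers CD63 and CD81 had 124 and 67.7 RPKM in EVs, while CD9 had 36 reads and ITGB1 10 reads in all 6 libraries together. The paper reports CD9 and CD29 (ITGB1) protein on the EVs, and CD90 (THY1) and CD105 (ENG) protein on the MSCs. Low mRNA counts on these entries thus do not show that the markers were absent.

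In these cells, 9 of the 10 genes had lower fitted values in EVs than in MSCs, and 1, FILIP1L, had a higher value. Among the lower, VCL rests on 184 reads in all. Its direction is not settled, since it turned when MSC replicate 1 or EV replicate 3 was left out. The log2 ratio of EVs over MSCs, fitted with edgeR and printed with its standard error (SE), ran from -0.94 for ACTN1 to 1.17 for FILIP1L, with a median of -0.67, against a median of -0.02 over all entries tested. In 5 genes (ACTN1, ACTN4, ZYX, TPM4 and TLN1) the EV value was lower in all 3 pigs, a pattern that 24.2% of all entries showed. In 4 of them (ACTN1, ACTN4, ZYX and TLN1) every EV library lay below every MSC library, as was the case for 13.6% of all entries. FILIP1L was the gene in which every EV library lay above every MSC library, which 14.3% of entries did. Among the 4362 entries with a mean log2 CPM of at least 5, which include 9 of the 10 genes, 29.4% were lower in all 3 pigs and 19.3% had no overlap. Of the 10 genes, 0 were lower by more than 2-fold with an unadjusted p under 0.05 (3.57% of all entries) and 1 was higher by that rule (5.55% of all entries). Nothing is read from these counts, since the genes were chosen from this contrast.

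**Figure D1:**
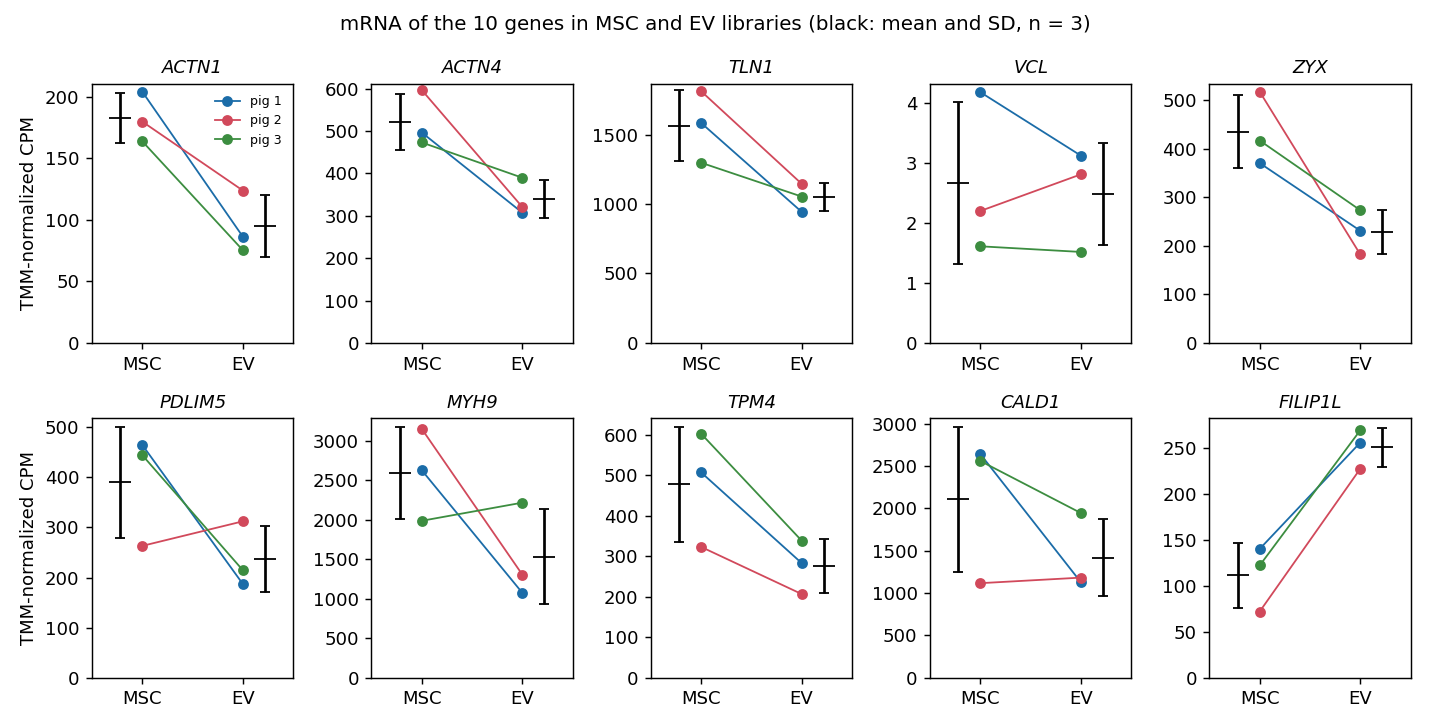
TMM-normalized CPM (vertical axes, each starting at 0) of the 10 genes in MSC and EV libraries, with a line for each of the 3 pigs and the mean and SD of each group in black (n = 3). The EV points lie below all MSC points for ACTN1, ACTN4, TLN1 and ZYX and above them for FILIP1L, and the groups overlap for VCL, PDLIM5, MYH9, TPM4 and CALD1.

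Together the 10 genes took 0.994%, 0.684% and 0.840% of the reads on genes in MSC replicates 1, 2 and 3. In the EV replicates they took 0.511%, 0.528% and 0.577%. The highest EV share was thus below the lowest MSC share, from which nothing is read, since the genes were chosen from this contrast. The 95% Wilson interval was widest in MSC replicate 1, from 0.988% to 0.999%, and it covers counting error only. Most of these reads belonged to MYH9, CALD1 and TLN1, which made up 69.9% to 77.0% of them in each library. A share of reads does not tell less of these mRNAs in EVs from more of other RNA, and in MSCs fewer cells with a given mRNA and less of it per cell cannot be told apart.

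ACTN1 and ACTN4 encode the non-muscle alpha-actinins, which crosslink actin filaments into bundles and tie them to adhesions. ACTN1 (chromosome 7 from 98863871 to 98895123, susScr3 as in the submitters' processing notes) had 204, 180 and 164 TMM-normalized CPM in MSC libraries 1, 2 and 3, against 86.1, 124 and 75.2 in EV libraries of the same pigs. Every EV library was below every MSC library, and pig 2 showed the smallest gap, -0.54 on the log2 scale against -1.24 and -1.12 in pigs 1 and 3. For ACTN1 the fitted log2 ratio was -0.94 (SE 0.26), which is 1.92-fold less in EVs. ACTN4 (ENSSSCG00000002965, chromosome 6 from 43045535 to 43125072) had 497, 597 and 473 CPM in MSCs and 308, 321 and 390 in EVs. Its groups were also separate, with the smallest gap in pig 3 (-0.28), and its log2 ratio was -0.62 (SE 0.25). An entry named GALNS covers the whole span of ACTN4 and held 14423 reads of its own.

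Per kilobase, ACTN4 was the more abundant alpha-actinin mRNA in every library. It had 49.2 ± 3.25 RPKM in MSCs and 32.4 ± 0.815 in EVs, and ACTN1 had 17.4 ± 3.24 and 9.31 ± 3.23 (SD, n = 3 each). The ratio of ACTN4 to ACTN1 RPKM was 2.43, 3.31 and 2.88 in the MSC replicates and 3.56, 2.58 and 5.17 in the EV replicates. These ratios overlapped between the groups, and EV replicate 3, where ACTN1 was lowest, stood highest.

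TLN1 encodes talin, which binds integrin tails and starts the link to actin. TLN1 (ENSSSCG00000005317, chromosome 1 from 264141075 to 264169348) had 1585, 1813 and 1298 CPM in MSCs and 944, 1147 and 1054 in EVs. The EV libraries were closer together than the MSC libraries, and all lay below them. Its log2 ratio was -0.58 (SE 0.28), with differences of -0.75, -0.66 and -0.30 in pigs 1, 2 and 3.

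ZYX encodes zyxin, a LIM-domain protein that moves to strained stress fibres and mature adhesions. For ZYX (ENSSSCG00000016461, chromosome 18 from 7099521 to 7110835), CPM was 371, 518 and 417 in MSCs and 231, 183 and 274 in EVs. Both extremes came from pig 2, with the highest MSC and the lowest EV value, so that its difference of -1.50 exceeded those of pigs 1 (-0.68) and 3 (-0.61). The log2 ratio of ZYX was -0.93 (SE 0.27). Per length, ZYX had 67.5 ± 4.85 RPKM in MSCs and 36.1 ± 4.40 in EVs (SD, n = 3 each).

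PDLIM5, a PDZ and LIM protein also called ENH, binds alpha-actinin on stress fibres. PDLIM5 (ENSSSCG00000009192, chromosome 8 from 134331169 to 134558588) had 465, 263 and 444 CPM in MSCs and 187, 312 and 214 in EVs. The groups overlapped because pig 2 went the other way, with an EV value above its MSC value (0.25 on the log2 scale). In pigs 1 and 3 the differences were -1.31 and -1.05, and the fitted log2 ratio was -0.72 (SE 0.33).

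VCL encodes vinculin, the adaptor that strengthens the link between talin and actin under load. Its level could not be read well. The table holds a pair of VCL entries over the same span (chromosome 14 from 82826612 to 82938103). The entry named by symbol, of 5174 bases, was at 0 reads in every library, and the Ensembl entry ENSSSCG00000010313, which is 204 bases longer, had 54, 23 and 19 reads in the MSC replicates and 37, 36 and 15 in the EV replicates. That is 0.136 ± 0.0797 RPKM in MSCs and 0.129 ± 0.0541 in EVs (SD, n = 3 each), which put VCL at rank 7649 of the 13363 symbols by mean MSC RPKM. The log2 ratio was -0.10 (SE 0.51), and it was 0.38 without MSC replicate 1 and 0.15 without EV replicate 3. On the 184 reads of this entry a difference was not detectable. How reads that match both entries were assigned is not given in the sources used here. The RPKM of VCL divides by all 5378 bases. It and the rank thus understate the level if only the 204 additional bases could collect reads, which was not tested. Metavinculin, the muscle form of the protein, has an additional exon, and whether the 204 bases are that exon was not tested.

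MYH9 encodes the heavy chain of non-muscle myosin IIA, the motor that pulls stress fibres taut. MYH9 (ENSSSCG00000000145, chromosome 5 from 9077726 to 9165953) had the most reads of the 10 genes, 141685 in all. Its CPM was 2628, 3152 and 1987 in MSCs and 1076, 1306 and 2217 in EVs. Pigs 1 and 2 showed differences of -1.29 and -1.27 on the log2 scale, while pig 3 showed 0.16, so that the groups overlapped. In RPKM, without TMM normalization, EV replicate 3 had 85.7 and MSC replicate 3 had 87.8, and the groups did not overlap. The fitted log2 ratio of MYH9 was -0.76 (SE 0.38), and it was -1.12 without EV replicate 3.

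TPM4 encodes a tropomyosin, a coiled coil that lies along actin filaments and sets which motors and severing proteins reach them. TPM4 (ENSSSCG00000013849, chromosome 2 from 61156657 to 61172692) had 507, 323 and 602 CPM in MSCs and 283, 206 and 338 in EVs. The EV value was lower in each pig by nearly the same amount, -0.84, -0.64 and -0.83, the smallest spread between pigs among the 10 genes (SD 0.11). The groups still overlapped, since MSC replicate 2 lay below EV replicate 3. A second TPM4 entry, named by symbol, covers 97.7% of this span and was at 0 reads, and the entry used here extends 369 bases past its end, which is also the whole difference in length between them. The RPKM of TPM4, 106 ± 37.4 in MSCs and 60.5 ± 10.0 in EVs (SD, n = 3 each), divides by all 1222 bases, so it understates the level if only the additional bases could collect reads, which was not tested.

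CALD1 encodes caldesmon, which holds back myosin on actin in a calcium-dependent way. CALD1 (ENSSSCG00000016535, chromosome 18 from 15075829 to 15194597) had the highest RPKM of the 10 genes in both groups, 117 ± 54.7 in MSCs and 76.0 ± 14.9 in EVs (SD, n = 3 each), at rank 72 and rank 89 of all symbols. That order takes the RPKM of TPM4 and VCL as counted, which may understate their levels. The CPM of CALD1 was 2641, 1116 and 2560 in MSCs and 1127, 1182 and 1945 in EVs. MSC replicate 2 held less than any EV library, and the groups overlapped. The differences in pigs 1, 2 and 3 were -1.23, 0.08 and -0.40, and the log2 ratio was -0.57 (SE 0.43), or -0.87 without MSC replicate 2 or EV replicate 3 and -0.38 without MSC replicate 1.

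FILIP1L encodes a filamin A interacting protein linked to cell migration, and it stood opposite to the others. FILIP1L (ENSSSCG00000011972, chromosome 13 from 168935761 to 168939078) had 140, 71.9 and 122 CPM in MSCs and 255, 227 and 269 in EVs. The EV libraries were above the MSC libraries in each pig, by 0.87, 1.66 and 1.14 on the log2 scale, and close to each other. Its log2 ratio was 1.17 (SE 0.30), and its RPKM was 9.16 ± 3.62 in MSCs and 20.4 ± 1.59 in EVs (SD, n = 3 each). The gene model counted here is a single block of 3318 bases, equal to its span, so reads on exons outside this block were not counted for it.

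**Figure D2:**
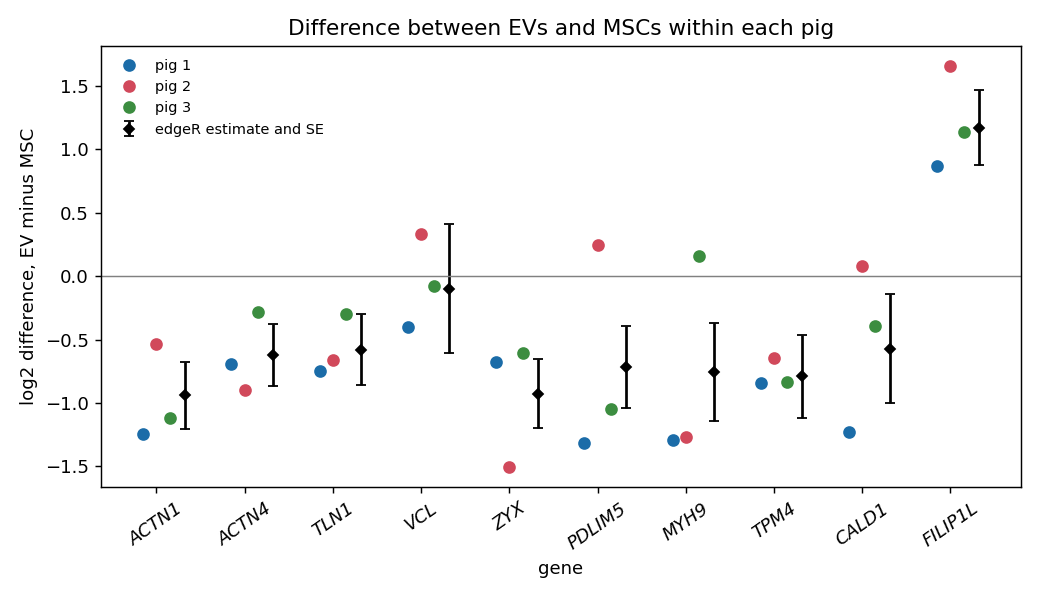
Log2 difference between EVs and MSCs (vertical axis) within each pig for the 10 genes, with the edgeR estimate and its standard error as a black diamond. All 3 pigs lie below 0 for ACTN1, ACTN4, TLN1, ZYX and TPM4 and above 0 for FILIP1L, pig 2 lies above 0 for PDLIM5, VCL and CALD1, and pig 3 lies above 0 for MYH9.

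The 3 pigs differed in size and in which genes departed. In pig 1, 9 of the 10 genes were lower in EVs, with a median difference of -0.79 on the log2 scale, where all entries had a median of -0.01. Pig 2 had 6 lower genes with a median of -0.59, against 0.03 over all entries. In pig 3, 8 genes were lower, with a median of -0.35 against -0.05. The share of all entries lower in a single pig was not computed. Nothing is read from these counts, since the genes were chosen from this contrast. MSC replicate 2 split the genes. Relative to the mean of the other MSC libraries it was lower in CALD1 (-1.22), FILIP1L (-0.86), PDLIM5 (-0.79) and TPM4 (-0.78), and higher in MYH9 (0.46), ZYX (0.40), TLN1 (0.34) and ACTN4 (0.30). ACTN1 (-0.02) did neither. Across the 6 libraries, the closest pairs in log2 CPM were ACTN4 with ZYX (Pearson r = 0.96), ACTN4 with MYH9 (0.94) and ACTN4 with TLN1 (0.92), and FILIP1L ran most opposite to TLN1 (-0.92). TPM4 ran with CALD1 at 0.86. These correlations are over 6 libraries that fall into the EV and MSC groups, and are given as a description.

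Of the other genes measured, those whose pattern over the 6 libraries was most like the mean pattern of the 10 genes were UBAP2 (r = 0.98), NGLY1 (0.98), FLNC (0.97), HNRNPUL1 (0.96) and DAB2 (0.96), among 3366 symbols with a mean log2 CPM of at least 5. FLNC encodes filamin C, an actin crosslinker, and DAB2 an endocytic adaptor. NGLY1 removes sugar chains from misfolded glycoproteins. UBAP2 and HNRNPUL1 are a ubiquitin-binding and an RNA-binding protein. The log2 ratio of HNRNPUL1 was -0.18, against a median of -0.67 for the 10 genes. Its span lies wholly within that of the GALNS entry, which held 14423 reads. The 5 are the highest of 3366 correlations over 6 libraries, with a pattern from genes chosen from this contrast, and are given as a description. The likeness of the 10 genes to their own mean ran from 0.68 to 0.86 for 8 of them, and was 0.15 for VCL and -0.72 for FILIP1L.

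**Figure D3:**
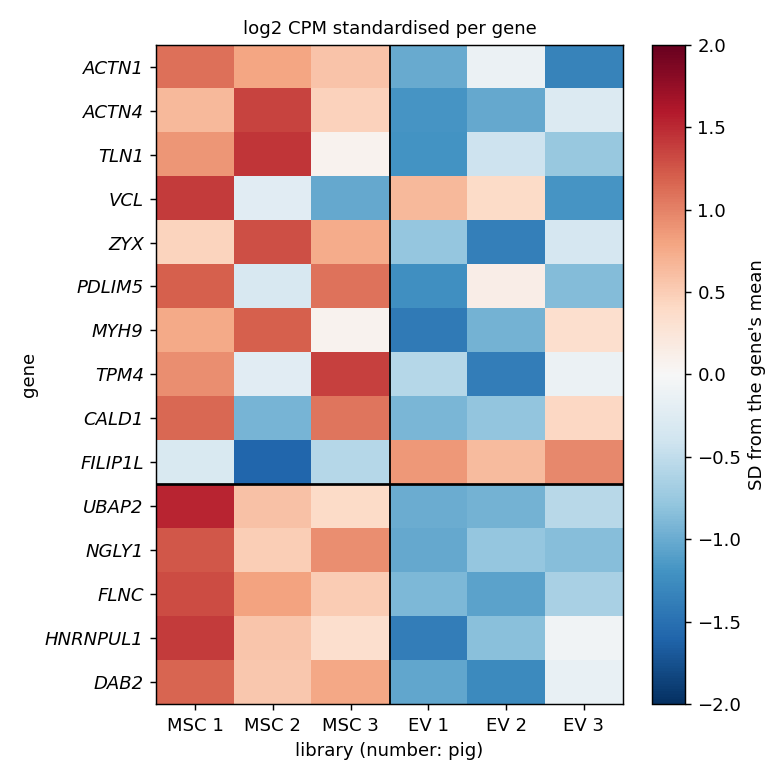
Log2 CPM in the 6 mRNA libraries (columns), standardised for each gene to its own mean and SD, for the 10 genes above the line and the 5 most similar other genes below it. MSC columns are above the gene's mean (red) and EV columns below it (blue) in most rows, FILIP1L is reversed, and VCL and the MSC 2 column depart from the pattern.

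The other genes of the machinery were taken from 5 lists that do not contain the 10 genes: their paralogs, other SRF and MRTF targets of the contractile cytoskeleton, other focal adhesion components, genes of actin nucleation, capping, bundling and turnover, and regulators of SRF and MRTF. The lists were chosen with earlier results of these data known, so their counts are a description and no independent test of the machinery. Of 169 genes, 137 had an entry and 109 could be tested. The test was edgeR's quasi-likelihood F, Benjamini-Hochberg adjusted over all entries. By a fold change over 2 with an unadjusted p under 0.05, 17 of the 109 were lower in EVs (15.6%, against 3.57% of all entries) and 3 were higher (2.75%, against 5.55%). Past an adjusted p under 0.05, 0 were lower and 0 higher, as for all entries (lowest edgeR adjusted p = 0.129), and at an unadjusted p under 0.05 with any fold, 30 were lower and 4 higher (7.93% and 8.03% of all entries). When the pig was added as a block, called the pig block from here on, 5 were lower and 0 higher past the adjusted threshold (0.605% and 0.492% of all entries), and by DESeq2 14 were lower and 1 higher (1.57% and 2.13% of the 11874 entries with an adjusted p there). Of the 28 genes with an entry that could not be tested, 21 share at least 90% of their span with another entry and 19 were at 0 reads, among them TAGLN, MYL9, TPM1 and TPM3, so their level could not be read.

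Of the 15 other contractile SRF and MRTF targets tested, 9 were lower in EVs past the unadjusted threshold and 1 higher (3.57% and 5.55% of all entries). Their median log2 ratio was -1.40. The smooth muscle actins were furthest down, although these genes are near-identical in sequence to one another and to ACTB and ACTG1, so reads could be split between them. ACTA2 (chromosome 14 from 109852735 to 109871621) was counted at 359, 286 and 431 reads in MSCs against 13, 5 and 39 in EVs, a log2 ratio of -4.10 (SE 0.74, edgeR adjusted p = 0.206, pig block 0.0116), on an entry that shares 97.5% of its span with another. ACTG2 was counted at 449, 630 and 497 reads in MSCs against 58, 40 and 43 in EVs, with a log2 ratio of -3.47 (SE 0.34, edgeR adjusted p = 0.129, pig block 0.0116). The groups were far apart for both genes.

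The cytoplasmic actins were the most abundant of the list. ACTG1 had 1615, 1684 and 1301 RPKM in the MSC replicates and 437, 439 and 291 in the EV replicates. ACTB had 776, 713 and 795 RPKM in MSCs and 324, 252 and 166 in EVs. Their log2 ratios were -2.03 and -1.67 (SE 0.37 and 0.34, edgeR adjusted p = 0.206 each). Together they took 1.54% to 1.73% of all reads on genes in MSC libraries and 0.315% to 0.573% in EV libraries. Also lower past the unadjusted threshold were the filamin FLNC (log2 ratio -1.33), the myosin light chain MYL6 (-1.59), the LIM protein CSRP1 (-1.45) and TUFT1 (-1.40). The entry of TUFT1 lies wholly within the span of another. CSRP2 was the member that was higher (1.25), although in EV replicate 2 its reads were fewer than in MSC replicate 2, 308 against 345, and it is named here after its values were seen. Its call was lost under 7 alternatives.

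Among the paralogs of the 10 genes, 8 could be tested, with a median log2 ratio of -0.36. With the pig block or without EV replicate 3, 2 were lower, where 641 and 607 of all entries were. In the main fit 1 was lower past the unadjusted threshold, against 3.57% of all entries. That gene was PDLIM1, a relative of PDLIM5 that also binds alpha-actinin. PDLIM1 (chromosome 14 from 116376967 to 116425960) was counted at 2726, 4672 and 2521 reads in MSCs against 859, 558 and 591 in EVs, with a log2 ratio of -2.31 (SE 0.39, edgeR adjusted p = 0.206, pig block 0.0395). TRIP6, a zyxin relative, had a log2 ratio of -0.87 (edgeR adjusted p = 0.221, unadjusted 0.00602), and its EV libraries all lay below its MSC libraries. The talin paralog TLN2, counted on an entry from 120431331 to 120439666 of chromosome 1, had 1.37 RPKM in MSCs and 1.43 in EVs, far under TLN1 at 51.7 and 35.3, and a log2 ratio of 0.07 (SE 0.34). CTNNA1, the alpha-catenin related to vinculin, had the second highest RPKM of the list and a log2 ratio of -0.65 (edgeR adjusted p = 0.316).

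Of 35 other focal adhesion components tested, 2 were lower and 1 higher past the unadjusted threshold (3.57% and 5.55% of all entries). Their median log2 ratio was -0.24. The count of lower members was 5 without MSC replicate 1 and 4 without EV replicate 3, with 551 and 607 over all entries. The higher count was 0 without MSC replicate 2, EV replicate 1 or EV replicate 2, with 568, 737 and 511 over all entries. LIMS2 (PINCH2), an adaptor of integrin-linked kinase, was counted at 62, 193 and 69 reads in MSCs against 10, 4 and 9 in EVs, a log2 ratio of -3.81 (SE 0.71, edgeR adjusted p = 0.206, pig block 0.0421), counted on an entry that shares its whole span with another. AJUBA, a LIM protein of the zyxin family, was counted at 299, 234 and 290 reads in MSCs against 89, 41 and 32 in EVs, with a log2 ratio of -2.33 (SE 0.41, edgeR adjusted p = 0.206, pig block 0.0305). ITGA2, the alpha-2 subunit of a collagen receptor, had 54, 16 and 54 reads in MSCs against 104, 119 and 56 in EVs and passed the unadjusted threshold as higher (edgeR adjusted p = 0.288), on an entry that shares 96.7% of its span with another. The members with the highest RPKM over all libraries did not pass. The parvin PARVA had a log2 ratio of -0.38 and the fibronectin receptor subunit ITGA5 had 0.29.

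Genes of actin nucleation, capping, bundling and turnover had 4 lower and 0 higher members among 35 tested (3.57% and 5.55% of all entries). Their median log2 ratio was -0.48. The lower count was 2 without MSC replicate 1 or EV replicate 2, and 6 without EV replicate 3, as with the pig block. Over all entries it was 551, 270, 607 and 641 in these fits. The 4 were the alpha-actinin partner PALLD (palladin, -1.43), the filament-severing CFL2 (cofilin 2, -1.13), the membrane linker EZR (ezrin, -1.03) and the motor MYO1C (-1.02), with adjusted p from 0.219 to 0.245 in edgeR. PALLD was counted at 4664, 2212 and 3489 reads in MSCs against 1022, 884 and 1650 in EVs, so its groups did not overlap. BRK1, a subunit of the WAVE complex, had 72.7 RPKM in MSCs and 55.7 in EVs and a ratio of -0.41 on the log2 scale (edgeR adjusted p = 0.354). The ezrin relative MSN, moesin, had 62.6 RPKM in MSCs and 64.9 in EVs and a log2 ratio of 0.03 (SE 0.24).

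Of the regulators, 16 could be tested, 1 was lower and 1 higher (3.57% and 5.55% of all entries), and the median log2 ratio was 0.02. With the pig block 3 were lower and 2 higher, with 641 and 992 over all entries. Without EV replicate 3 the lower count was 0, with 607 over all entries. SRF itself (chromosome 7 from 43714054 to 43724057) was counted at 2101, 1517 and 1540 reads in MSCs against 862, 954 and 527 in EVs, with every EV library below every MSC library. Its log2 ratio was -1.13 (SE 0.23, edgeR adjusted p = 0.210). Its coactivator MRTFA was counted at 800, 767 and 785 reads in MSCs against 918, 1019 and 546 in EVs, a log2 ratio of 0.07 (SE 0.23, edgeR adjusted p = 0.883), and MRTFB had no entry under its symbol. ELK4, an SRF partner of the ternary complex family, was counted at 84, 20 and 42 reads in MSCs against 164, 267 and 187 in EVs and was the member that was higher (log2 ratio 2.15). RHOC, a small GTPase that promotes stress fibres, had -0.65, and ELK3, another partner of SRF, had 0.30. Binding of SRF was not measured in these samples, so whether the 10 genes respond to it here was not tested.

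**Figure D4:**
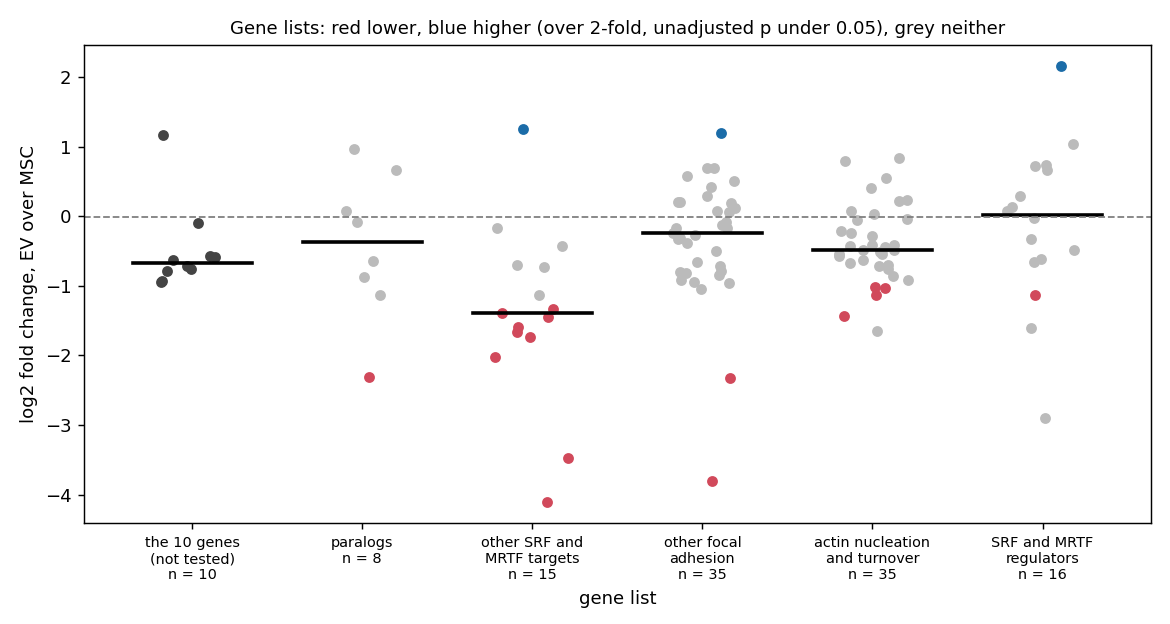
Log2 ratio of EVs over MSCs (vertical axis) for the 10 genes and the tested members of the 5 lists, with the median of each as a black bar and the median of all entries as a dashed line. Points in red or blue are more than 2-fold lower or higher with an unadjusted p under 0.05 from edgeR. The list of other SRF and MRTF targets has the lowest median, -1.40.

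Gene models of the 10 genes are long, with a median of 4134.5 bases against 2020 over all entries, and log2 ratio increased with log2 length across the 12392 entries (Pearson r = 0.10, a description over genes). With that trend removed the median of the 10 genes was -0.84. Among markers of other cell types, KDR had 1 read, PTPRC 33 reads and VWF, PPBP and DES 0 reads in all libraries. Summed over 9 endothelial markers with an entry, RPKM was 3.51 to 6.69 in MSCs and 2.89 to 3.63 in EVs, with PECAM1 lower in EVs past the unadjusted threshold. Over 10 leukocyte markers it was 5.58 to 7.22 and 5.04 to 8.77, and over 6 platelet markers 1.85 to 3.40 and 4.71 to 5.92, with F13A1 higher in EVs past that threshold. For 11 smooth muscle and pericyte markers the sums were 30.4 to 79.6 in MSCs and 64.6 to 82.6 in EVs, with NOTCH3 and ABCC9 higher in EVs past the unadjusted threshold. The erythroid sums were 0.456 to 0.980 and 0.786 to 1.24 over 4 markers. Their part in the values of the 10 genes was not tested.

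A readout that the choice of genes did not use is the cluster of miR-143 and miR-145, a pair of miRNAs transcribed together under SRF and myocardin in smooth muscle, measured in the small-RNA libraries of the same pig labels. The small-RNA libraries held 15395871, 14709463 and 9455607 counts in MSC replicates 1, 2 and 3, against 656888, 19454 and 18374 in the EV replicates. Their TMM factors ran from 0.306 in MSC replicate 3 to 3.24 in EV replicate 3, so the fitted ratios rest on strong rescaling. In the deposited CPM, miR-145-5p had 3358, 1672 and 908 in the MSC replicates and 216, 51.4 and 163 in the EV replicates. The EV values lay below each MSC library but rest on 142, 1 and 3 counts. A count of 0 would have allowed 4.57, 154 and 163 CPM, a limit that does not cover the error of counts of 1 and 3. Its log2 ratio was -4.21 (SE 1.08, unadjusted p = 0.00560 and edgeR adjusted p = 0.0813 over 220 miRNAs), among which 24.1% were more than 2-fold lower and 6.36% more than 2-fold higher with an unadjusted p under 0.05. Over the alternatives the adjusted p of miR-145-5p ran from 0.00504 with DESeq2 to 0.530 with the pig block. It was 0.0315 without EV replicate 3, 0.230 with library totals only (unadjusted p = 0.0659 in edgeR) and 0.258 to 0.404 without each MSC replicate. miR-145-3p, from the other arm, had a log2 ratio of -3.59 (SE 1.49, edgeR adjusted p = 0.149), on 67, 2 and 0 counts in EVs.

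The miR-143 arms did not separate. miR-143-3p, the abundant arm, had 52602, 21050 and 46608 CPM in MSCs and 38485, 34955 and 1197 in EVs, the last from 22 counts. EV replicate 3 stood far below the others, while the other EV libraries lay within the MSC range. Its log2 ratio was -1.23 (SE 1.45, edgeR adjusted p = 0.629). For miR-143-5p the log2 ratio was -1.95 (SE 1.48, edgeR adjusted p = 0.439) on 107, 0 and 1 counts in EVs, so a difference was not detectable at this depth.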

How the data were processed

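The authors aligned mRNA reads with TopHat, assigned them to genes by featureCounts as the methods state, and deposited raw counts beside RPKM. For small RNA they deposited expected counts from CAP-miRSeq, in which reads matching several precursors are shared, and CPM. The genome build in the submitters' processing notes is susScr3, and these notes also list HTSeq, so which counter made the gene counts is not settled here. Of 29661 mRNA entries, 3 with shifted columns were left out. Symbols came from the table or, for 11804 of 25322 Ensembl identifiers, from an annotation table. miRNA values were rounded to whole counts, with the most-read entry per mature miRNA.

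The fit used edgeR 4.0.16 under R 4.3.3, with TMM, filterByExpr, the quasi-likelihood test and Benjamini-Hochberg adjustment, and without pairing. Alternatives were other scaling, DESeq2 1.42.0, no filter, limma 3.58.1 on log2 RPKM, a pig block, and each library left out in turn. Removing the length trend and leaving out entries that share at least 0.9 of their span were chosen after seeing the data. The pairing comes from the pig labels: same-pig libraries correlated at 0.251, 0.384 and 0.408 in mRNA (deviations from group means), and at -0.227, -0.019 and -0.132 in small RNA, whose titles number the pigs differently. Libraries of different pigs correlated at -0.364 to -0.038 in mRNA and at -0.078 to 0.170 in small RNA. In small RNA the same-pig libraries thus stood no closer than others, and the pig block there rests on the labels alone.

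The genes and lists were chosen with earlier results of these data known. Genes named from each list are those with the largest change past the unadjusted threshold in all 3 pigs (at most 4 a direction), the 2 with the highest RPKM, SRF and its coactivators, and the 5 most similar in pattern. Others were named after their values were seen. A gene that the rule names is not reported here. The fit was tested on simulated data. Promoter and protein sequences were not analysed here. Wilson intervals (95%) and limits of 3 counts cover counting error only.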

Additional observations from a re-analysis of the deposited data

How the results depend on the processing

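The median log2 fold change of the 10 genes, -0.67, ranged from -0.77 to -0.56 when each library was left out. ACTN1, ACTN4, ZYX, TPM4, MYH9, PDLIM5, TLN1, CALD1 and FILIP1L kept their direction under every alternative that could be fitted, and VCL ranged from -0.37 without MSC replicate 3, turning to 0.38 without MSC replicate 1 and 0.15 without EV replicate 3. The fit without entries that share their span holds no ACTN4, TPM4 or VCL. The pig block called 61 entries higher and 75 lower after adjustment, against 0 and 0 without it, and 5 list genes lower. By the unadjusted threshold it moved the list genes from 17 to 24 lower and from 3 to 4 higher. Over all entries it moved the counts from 442 to 641 lower and from 688 to 992 higher. DESeq2 gave 253 higher and 186 lower entries past the adjusted threshold, with 1 list gene higher and 14 lower. Lower past the adjusted threshold were 3 entries and 1 list gene with library totals only, 5 and 1 without the filter, 10 and 2 with limma on log2 RPKM plus 1 (1 entry higher), and 5 and 1 with limma on log2 RPKM plus 0.1. By the unadjusted threshold, limma on log2 RPKM plus 1 gave 233 higher and 194 lower entries, against 688 and 442, and 1 list gene higher with either pseudocount. Leaving out each library gave 511 to 948 higher and 270 to 607 lower entries (270 without EV replicate 2), and 2 to 5 list genes higher and 16 to 22 lower, with 0 past the adjusted threshold. Of the list genes named, CSRP2, ITGA2, MYO1C, CFL2, EZR and SRF fell short of the unadjusted threshold under 7, 7, 6, 3, 2 and 2 alternatives. The log2 fold change of miR-145-5p was -3.97 with DESeq2 and -5.40 to -3.84 without each library, that of miR-145-3p -3.44 and -4.40 to -3.09, past the adjusted threshold with DESeq2 and without EV replicate 3 and under no other alternative (adjusted p = 0.530 and 0.634 with the pig block, 0.230 and 0.345 with library totals only, from edgeR). The range was -4.53 to -1.24 for miR-143-5p and -1.81 to -0.16 for miR-143-3p. Of the 5 genes most similar in pattern, 4 remained with a lower minimum of 3. The cause was not tested. EV depth limits the small-RNA values.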
